A study of Rattus norvegicus with 2 samples.

Results

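The genes described here encode the ligands, receptors, intracellular messengers, inhibitors and Id target genes of transforming growth factor beta (TGF-beta), activin and bone morphogenetic protein (BMP) signalling. They were chosen by a pattern of gene symbols, from probe sets annotated to exactly 1 gene, and each gene was represented by its probe set of highest mean signal. In this way 63 of the 14217 genes on the arrays were selected, through 100 probe sets. The pattern lists Nrep by name and also took in Tgfb1i1 and Bmp2k through their first letters, and these 3 are neither ligands, receptors nor messengers of the pathway. Nrep was among the genes of largest difference in earlier results of these data, which were known when the pattern was written.

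The RNA came from livers of male rats of the outbred Wistar strain, aged 2 months and weighing 250 to 300 g. The olive oil group was fasted for 18 h, received a bolus of olive oil and was killed 4 h later. The bolus is given as 5 ml and as about 16 ml per kg. At the stated weights, 5 ml is somewhat more than 16 ml per kg. The fasted group went through the 18 h fast and was given no fat meal. Whether it was kept for a further 4 h is not stated, so the time without food may differ between the groups. Each group was measured on 1 Affymetrix array, and the number of rats behind an array and the hour of killing are not given in the labels, so that differences compare 2 arrays and carry no p-value and no spread over animals.

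TGF-beta, activins and BMPs are secreted dimers that bind pairs of type I and type II receptor kinases, which phosphorylate SMAD proteins. SMAD2 and SMAD3 carry the TGF-beta and activin signal and SMAD1, SMAD5 and SMAD9 the BMP signal, and both sets enter the nucleus with SMAD4. In liver the pathway is known for fibrosis through stellate cells, for restraint of hepatocyte growth, and for iron control, where BMP6 from endothelial cells induces hepcidin in hepatocytes.

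Signals are intensities on a linear scale. A floor of 12.8, which is the 25th percentile of the signals, was applied before log2 was taken. A gene is called measured here where the mean of its log2 signals was at or above the median probe set, at a signal of 41.4. The median signal over all probe sets was 44.7 on the olive oil array and 42.5 on the fasted array. For beta-actin, whose 3' to 5' signal ratio reflects how intact the RNA is, that ratio was 3.20 on the olive oil array and 2.63 on the fasted array, and for Gapdh it was 1.34 on the olive oil array and 1.28 on the fasted array. As a check of the labelled tissue, 10 of 11 hepatocyte markers were represented and all 10 were measured, with albumin (Alb) at 17984 on the olive oil array and 17154 on the fasted array. Probe sets of the same gene gave log2 differences with a pooled SD of 0.35 over 2290 genes, an error of the probes that does not include variation between rats.

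Of the 63 genes, 41 were measured (65.1%, against 64.8% of all genes). The olive oil array was at least 2-fold lower for Nrep, Inhba, Id4, Id2 and Smad2 and at least 2-fold higher for Tgfb3. Of all 9208 measured genes, 2.94% were at least 2-fold lower and 3.25% at least 2-fold higher, 6.19% together, against 6 of 41 members. Nrep, 1 of these 6, was named in the pattern with its large difference known, so the 6 are not read as an excess. Without Nrep, Tgfb1i1 and Bmp2k, 5 of 38 were past 2-fold. At 1.5-fold, Bmpr2, Id1 and Eng joined Tgfb3 on the higher side, which made 4 genes higher and 5 lower of 41. At that size 9.46% of all measured genes were higher and 10.1% lower, together 19.6%, and the 9 of 41 members past that size were a share near this background. Of the 22 members at or above the 75th percentile of mean log2 signal, 4 were at least 2-fold lower and 0 higher. Of all such genes 1.96% were lower and 2.42% higher, 4.38% together. Nrep and Inhba, among these 4, had 76.9 and 87.2 on the olive oil array, below that level. They passed it through the fasted array alone, so the counts of lower genes at this level are not read as an excess. At 1.5-fold 4 of these bright members were lower and 2 higher, where 7.43% of such genes were lower and 7.01% higher, 14.4% together. Centring each array on its median moved this split to 3 members higher and 8 lower at 1.5-fold, and over all measured genes to 701 higher and 1172 lower, from 871 and 934. The median log2 difference of the measured members was -0.03 and that of all measured genes -0.01. The median absolute difference was 0.31 among members and 0.26 among all measured genes. Of the members, 32 thus lay within 1.5-fold, and a few lay far out on the lower side. Among all measured genes ordered from the lowest difference upward, Nrep was at rank 1, Inhba at rank 2, Id4 at rank 20, Id2 at rank 125 and Smad2 at rank 202. The rank of Nrep is not a finding about the members, since its large difference was known when the pattern was written.

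**Figure D1:**
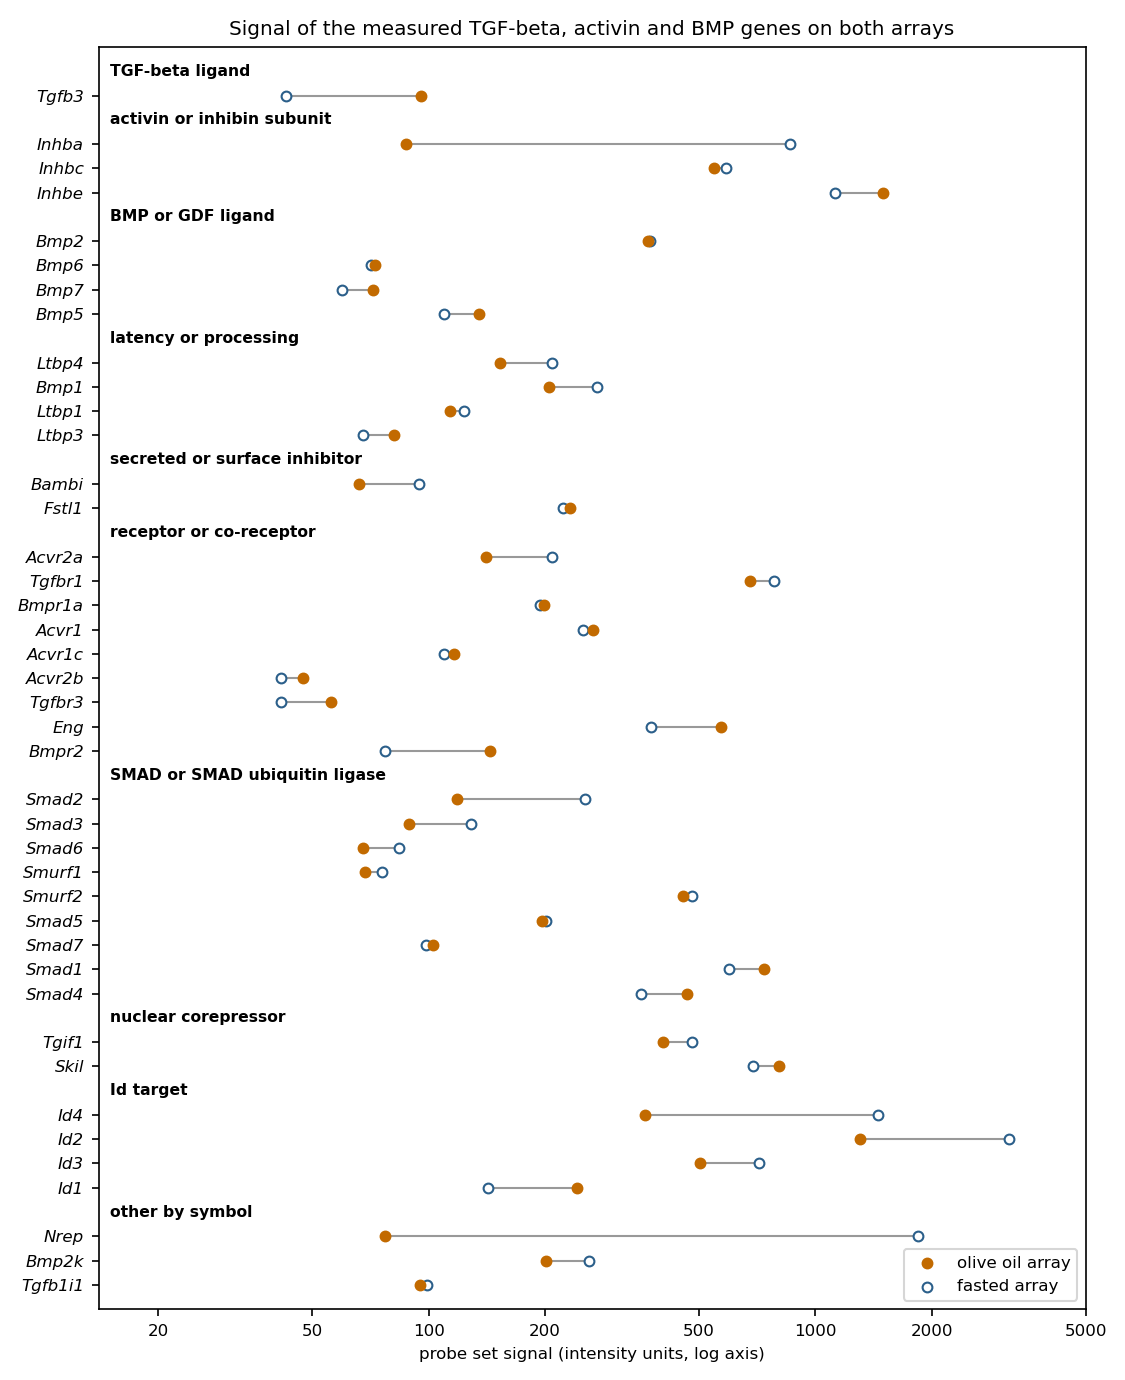
Signal of the 41 measured genes on the olive oil array (filled) and the fasted array (open), on a log axis, grouped by role and ordered by difference within a role. The long lines belong to Nrep (76.9 and 1842), Inhba (87.2 and 861) and Id4 (363 and 1449, olive oil first), while 32 of the 41 pairs lie within 1.5-fold.

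**Figure D2:**
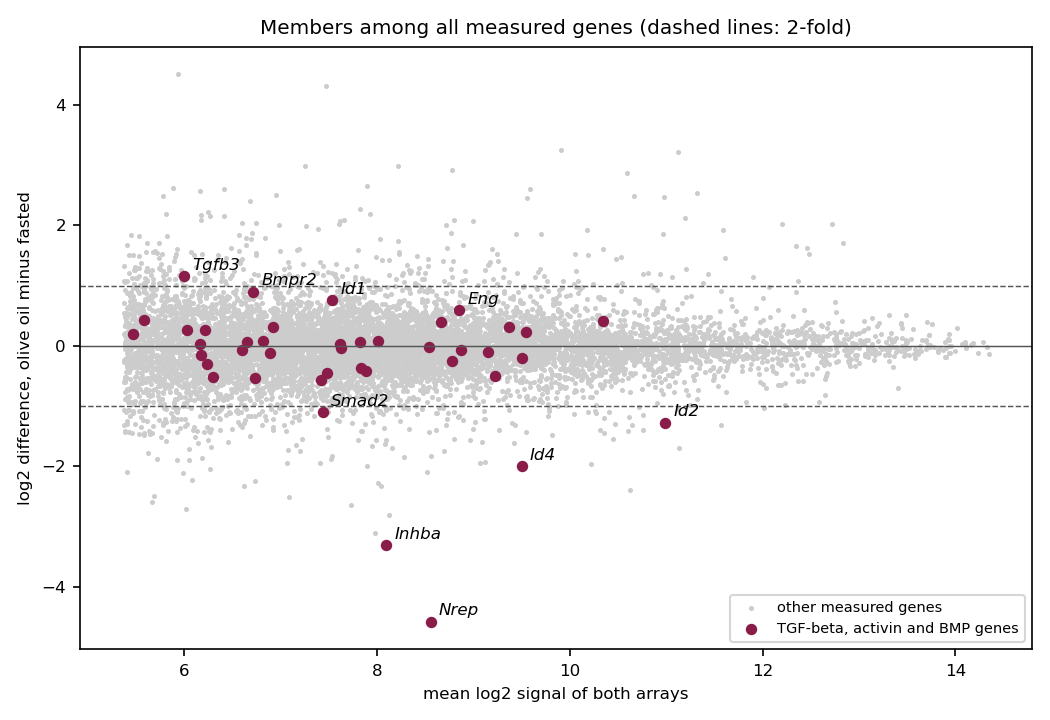
Log2 difference, olive oil minus fasted, against the mean log2 signal of both arrays for the 9208 measured genes, with the 41 members dark and the others grey. Nrep at -4.58 and Inhba at -3.30 lie below all other genes, and most members lie between the dashed 2-fold lines.

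Among the TGF-beta ligands, Tgfb3 was measured. Tgfb3, an isoform made by mesenchymal cells, had a signal of 95.6 on the olive oil array and 42.7 on the fasted array, a log2 difference of 1.16 or 2.24-fold higher, on its only probe set. It was dim on both arrays, close to the filter on the fasted one, and the difference was 0.93, under 2-fold, with an offset of 16 added to the signals. Tgfb1, the main profibrotic isoform, had 48.1 on the olive oil array and 34.5 on the fasted array, and Tgfb2 33.8 on the olive oil array and 25.7 on the fasted array, both too dim to count as measured. A direction is thus read for Tgfb3 alone, and all 3 ligand genes were dim.

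The activin genes encode beta subunits that pair into activins, and Inha the alpha subunit that turns them into inhibins. Inhba, the beta A subunit of activin A, had a signal of 87.2 on the olive oil array and 861 on the fasted array on its brightest probe set, 9.88-fold lower. On its other probe set it had 62.9 on the olive oil array and 71.4 on the fasted array, a log2 difference of -0.18. The 2 probe sets therefore gave different answers for the same gene, and their mean was -1.74. Inhbe, the beta E subunit, a hepatocyte-secreted protein, had 1499.6 on the olive oil array and 1125 on the fasted array, 1.33-fold higher. Inhbc, the beta C subunit, also made by hepatocytes, had 548 on the olive oil array and 588 on the fasted array, within 1.5-fold. Both subunits typical of liver thus lay within 1.5-fold, unlike the brightest probe set of Inhba. Inha had 47.0 on the olive oil array and 20.5 on the fasted array and Inhbb, the beta B subunit, 29.6 on the olive oil array and 1.4 on the fasted array, both too dim to count as measured.

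The stretch upstream of Inhba is shown because of the size of its difference. The sequence is RefSeq's, build GRCr8, minus strand, chr17:53804509-53804758, the 250 bases before the annotated start, and capitals mark matches on either strand to 5 short motifs. These are CAGAC, the SMAD3 and SMAD4 box, GGCGCC, a GC-rich SMAD site, and TGACG, the core of a CREB site. The promoter motifs CCAAT and TATAA complete the set. The Inhba window holds 3 CCAAT and 1 TATAA and none of the other motifs.
Inhba: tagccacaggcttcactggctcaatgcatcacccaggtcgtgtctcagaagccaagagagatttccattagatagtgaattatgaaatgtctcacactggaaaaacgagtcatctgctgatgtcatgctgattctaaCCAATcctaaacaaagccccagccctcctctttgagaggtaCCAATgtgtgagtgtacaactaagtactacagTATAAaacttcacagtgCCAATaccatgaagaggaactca

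The BMP and GDF ligands showed no member past 1.5-fold among the 4 that were measured. Bmp6, the endothelial inducer of hepcidin, had 72.6 on the olive oil array and 70.8 on the fasted array. Bmp2, a partner in iron control, had 370 on the olive oil array and 373 on the fasted array. Bmp5 had 135 on the olive oil array and 109 on the fasted array, and its other measured probe set also had a positive log2 difference, 0.36 against 0.31. Bmp7, an antifibrotic ligand in kidney, had 71.8 on the olive oil array and 59.6 on the fasted array. Bmp6 thus differed by 1.03-fold and Bmp2 by 1.01-fold. The other 9 ligands were dim. Gdf15, a stress-induced hormone, had 20.9 on the olive oil array and 62.2 on the fasted array, and Bmp4 had 19.9 on the olive oil array and 40.5 on the fasted array. Gdf11 had 50.2 on the olive oil array and 27.1 on the fasted array, with a second probe set of opposite direction at 5.5 on the olive oil array and 21.5 on the fasted array. Bmp3, Bmp8a, Bmp15, Gdf6, Gdf9 and Gdf10 stayed at or below 27.5 on both arrays.

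Latent TGF-beta binding proteins hold the ligand in the matrix, and Bmp1 is not a ligand but a procollagen protease that can cleave them. Ltbp4 had 153 on the olive oil array and 208 on the fasted array, Ltbp1 had 114 on the olive oil array and 123 on the fasted array, and Ltbp3 had 81.5 on the olive oil array and 67.8 on the fasted array. Bmp1 had 204 on the olive oil array and 273 on the fasted array, a log2 difference of -0.42, with 0.22 on its other probe set. All 4 lay within 1.5-fold, and Ltbp2 was below the floor on both arrays.

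Of the inhibitors at the cell surface or outside it, follistatin (Fst), which traps activin, was at 2.6 on the olive oil array and 14.7 on the fasted array and so near or below the floor. Bambi, a decoy receptor without a kinase, had 66.0 on the olive oil array and 94.5 on the fasted array, a log2 difference of -0.52, or -0.59 and past 1.5-fold with the arrays centred. Fstl1, a follistatin-like glycoprotein, had 232 on the olive oil array and 222 on the fasted array, and its 3 probe sets lay between -0.01 and 0.06. Fstl3, Fstl4, Fstl5 and the BMP antagonist Grem1 were not measured, with Fstl5 the only one above the floor, at 20.8 on the olive oil array and 19.4 on the fasted array.

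Of the 10 receptor and co-receptor genes selected, 9 were measured. Tgfbr2, the TGF-beta type II receptor, and Bmpr1b were not among the genes selected, so nothing can be said of them. Of the 9, 2 were at least 1.5-fold higher and none lower, where 9.46% of all measured genes were higher and 10.1% lower. Centring each array on its median gave 1 receptor higher (Bmpr2) and 1 lower (Acvr2a). Bmpr2, the type II receptor for BMPs, had 144 on the olive oil array and 77.1 on the fasted array, 1.87-fold higher on its only measured probe set. Eng, endoglin, an endothelial co-receptor, had 570 on the olive oil array and 376 on the fasted array, 1.51-fold higher, and its log2 difference of 0.60 was 0.53 and under 1.5-fold with the arrays centred on their medians. Eng thus stood just past that size and Bmpr2 further out. Acvr2a, the type II receptor that activins use, had 141 on the olive oil array and 208.5 on the fasted array, a log2 difference of -0.57. Tgfbr3, betaglycan, had 55.8 on the olive oil array and 41.4 on the fasted array, where it was below the filter level. The type I kinases lay within 1.5-fold, with Tgfbr1 at 677 on the olive oil array and 782 on the fasted array, Bmpr1a at 199 on the olive oil array and 194 on the fasted array, and Acvr1, also known as Alk2, at 265.5 on the olive oil array and 251 on the fasted array, a log2 difference of 0.08, with 0.46 and 0.28 on its other probe sets. Acvr1c and Acvr2b lay within 1.5-fold, and Acvrl1, an endothelial kinase, was not measured.

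Because Eng and Acvrl1 are known from endothelium and Tgfb3 and Bambi from mesenchymal cells, markers of those cells are given beside them. In bulk liver RNA, fewer cells of a type and less RNA per cell cannot be told apart. Of 14 liver endothelial markers 12 were represented and measured, with a median log2 difference of 0.12, 1 at least 1.5-fold higher (Lyve1, 0.61) and 2 lower (Stab1, -0.81, and Gata4, -0.63), and summed signals of 6927 on the olive oil array and 6403.5 on the fasted array. Of 16 stellate cell and fibroblast markers 15 were measured, with a median of 0.05, 3 at least 1.5-fold higher (Dcn, Acta2 and Lum, between 0.60 and 0.84) and 1 lower (Lrat, -0.59), and summed signals of 6442 on the olive oil array and 6189 on the fasted array. Marker genes past 1.5-fold were named after their values were seen. At that size 9.46% of all measured genes were higher and 10.1% lower. With the arrays centred, 0 endothelial markers were higher and 3 lower, and 2 stellate cell and fibroblast markers were higher and 2 lower. The 10 measured markers of Kupffer cells and macrophages all lay within 1.5-fold, with a median of 0.06 and summed signals of 7257 on the olive oil array and 6711 on the fasted array, and 1 of them was lower past that size with centring. Of the cholangiocyte list 3 genes were measured, with a median of -0.28 1 of them lower past 1.5-fold with centring, and summed signals over 7 represented genes of 427 on the olive oil array and 522 on the fasted array, and of the lymphocyte list 1, Cd4, at -0.02, with 183 on the olive oil array and 233 on the fasted array over 9 represented genes. Hepatocyte markers had a median of 0.02, with 1 of 10 past 1.5-fold, and summed signals of 119229 on the olive oil array and 115045 on the fasted array. The part of cell type shares in the differences was not tested.

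Among the SMAD messengers, Smad2 was the one past 1.5-fold. Smad2, which carries the TGF-beta and activin signal, had 118.5 on the olive oil array and 254 on the fasted array, 2.15-fold lower on its only probe set. Smad3, its partner, had 88.9 on the olive oil array and 128 on the fasted array, a log2 difference of -0.53, which was -0.60 and past 1.5-fold with the arrays centred. Smad4, the shared partner, had 466 on the olive oil array and 353 on the fasted array, 1.32-fold higher, and its other probe set was at 0.19 on the log2 scale. Smad3 and Smad4 thus lay on opposite sides of 0, both within 1.5-fold before centring. Smad1, a BMP messenger, had 736.5 on the olive oil array and 596 on the fasted array, 1.23-fold higher. Smad5, another, had 196 on the olive oil array and 201 on the fasted array, and its other measured probe sets were at -0.83 and -0.32, below that of -0.03 on the brightest. Smad9 was not measured. The BMP messengers therefore stayed within 1.5-fold on their brightest probe sets.

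Inhibitory SMADs close a feedback loop, since the pathway induces them. Smad7 had 102.5 on the olive oil array and 98.2 on the fasted array, a log2 difference of 0.06. Smad6 had 67.6 on the olive oil array and 83.8 on the fasted array, -0.31, with 0.64 on its other measured probe set. The ubiquitin ligase genes Smurf1 and Smurf2, whose products mark SMADs and receptors for degradation, lay at -0.15 and -0.08. Of the nuclear corepressors, Skil, also known as SnoN, had 805 on the olive oil array and 690.4 on the fasted array, 1.17-fold higher, and Tgif1 had 403 on the olive oil array and 479 on the fasted array, 1.19-fold lower. Smad6, Smad7, Smurf1, Smurf2, Skil and Tgif1 thus lay within 1.5-fold on their brightest probe sets, and Tgif2 was not measured.

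The Id genes encode helix-loop-helix proteins that lack a DNA-binding region and block the transcription factors they pair with. They are classical BMP targets, and the 4 genes differed in direction. Id4 had 363 on the olive oil array and 1449 on the fasted array on its brightest probe set, 3.99-fold lower. Its other probe sets had 64.5 on the olive oil array and 260 on the fasted array, 173 on the olive oil array and 456.5 on the fasted array, and 50.9 on the olive oil array and 62.9 on the fasted array. All 4 probe sets of Id4 were lower, with log2 differences between -2.01 and -0.31. Id2 had 1305 on the olive oil array and 3163.5 on the fasted array, 2.42-fold lower, and its other probe set 376 on the olive oil array and 643 on the fasted array, a log2 difference of -0.77. Id3 had 503 on the olive oil array and 714 on the fasted array, 1.42-fold lower and so within 1.5-fold. Id1, the member most often read as a BMP reporter, had 241 on the olive oil array and 142.5 on the fasted array, 1.69-fold higher. Id1 therefore stood opposite to Id2 and Id4. Id1 and Id3 each had 1 probe set, with a suffix that marks probes shared between transcripts of a gene.

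The stretches upstream of the 4 Id genes are shown to set the family members with opposite differences side by side. They are RefSeq's for GRCr8, the 250 bases before each annotated start, with Id1 at chr3:161671314-161671563 on the plus strand, Id2 at chr6:47470996-47471245 on the minus strand, Id3 at chr5:153656041-153656290 on the plus strand and Id4 at chr17:16598294-16598543 on the minus strand. Capitals mark the same 5 motifs on either strand, and in Id1 TATAA overlaps its own reverse complement. Id2 holds 3 CCAAT, Id1 holds 1 CCAAT and a TATAA, Id3 a TATAA, and Id4 none of the 5 motifs. The G and C content was 54.8% for Id1, 62.8% for Id2, 61.2% for Id3 and 62.8% for Id4.
Id1: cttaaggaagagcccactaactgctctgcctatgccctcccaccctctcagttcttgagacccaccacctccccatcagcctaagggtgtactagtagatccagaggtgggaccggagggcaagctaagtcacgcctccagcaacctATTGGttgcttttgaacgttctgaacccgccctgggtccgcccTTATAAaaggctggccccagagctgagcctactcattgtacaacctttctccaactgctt
Id2: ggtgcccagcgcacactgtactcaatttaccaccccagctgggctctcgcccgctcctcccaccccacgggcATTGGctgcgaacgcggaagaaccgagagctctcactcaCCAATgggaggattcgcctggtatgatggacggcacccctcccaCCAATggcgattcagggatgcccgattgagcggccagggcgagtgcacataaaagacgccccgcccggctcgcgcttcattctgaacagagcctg
Id3: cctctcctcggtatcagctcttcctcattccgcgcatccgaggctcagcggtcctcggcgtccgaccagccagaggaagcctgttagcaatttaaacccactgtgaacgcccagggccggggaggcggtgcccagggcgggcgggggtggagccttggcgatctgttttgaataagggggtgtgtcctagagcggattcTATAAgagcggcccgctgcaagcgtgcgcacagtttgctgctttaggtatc
Id4: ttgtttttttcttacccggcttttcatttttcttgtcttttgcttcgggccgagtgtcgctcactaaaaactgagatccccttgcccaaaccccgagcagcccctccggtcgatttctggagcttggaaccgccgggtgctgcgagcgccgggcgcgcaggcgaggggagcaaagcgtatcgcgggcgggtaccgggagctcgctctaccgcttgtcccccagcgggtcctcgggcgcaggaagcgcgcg

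None of the 4 windows holds CAGAC or GGCGCC, and none holds TGACG, which says only that these letters are not in these windows. Of 33469 upstream windows of the same length over all genes, CAGAC is held by 42.9%, GGCGCC by 8.69%, TGACG by 18.2%, CCAAT by 34.0% and TATAA by 24.0%. RefSeq's table had 54 windows for 52 of the 63 members, and CAGAC is held by 29.6% of these, GGCGCC by 22.2%, TGACG by 25.9%, CCAAT by 37.0% and TATAA by 16.7%. These shares describe letters in windows and were not related to the differences between the arrays.

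Of the 3 genes outside the pathway proper, Nrep had the lowest difference. Nrep, also known as P311, is a small intracellular protein linked in mouse work to the translation of TGF-beta ligands. It had a signal of 76.9 on the olive oil array and 1842 on the fasted array, 23.9-fold lower, on its only probe set, which has a suffix for probes shared between transcripts of a gene. Tgfb1i1, a focal adhesion protein also called Hic-5, lay at -0.06 and Bmp2k, a kinase, at -0.37 on the log2 scale, with -0.87 on the other probe set of Bmp2k. Without the 3 genes, 4 members were at least 2-fold lower and 1 at least 2-fold higher, and the median was 0.01. The Nrep window, chr18:25320743-25320992 on the minus strand of GRCr8, is shown for the size of the difference. It holds CAGAC once, on the other strand, and none of the other 4 motifs.
Nrep: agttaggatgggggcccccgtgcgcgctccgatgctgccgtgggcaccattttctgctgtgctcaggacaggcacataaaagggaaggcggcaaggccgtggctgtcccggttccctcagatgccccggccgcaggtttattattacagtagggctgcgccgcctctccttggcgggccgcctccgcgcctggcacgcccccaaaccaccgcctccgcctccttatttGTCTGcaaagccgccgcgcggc

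Where a member had several measured probe sets, the sizes could be set against each other. Of 15 such genes, 10 had all probe sets on one side of 0 and 5 had both signs. Those of both signs were Bmp1, Bmp6, Fstl1, Smad6 and Smurf2. The pooled SD between probe sets of a member was 0.64, against 0.35 over all genes. It was 0.42 without Inhba and 0.29 without Inhba and Id4. Leaving out the widest genes lowers such an SD by necessity. The value over all genes kept its own widest genes, so 0.29 and 0.35 are not like for like. Inhba, with a gap of over 3 log2 units between its probe sets, and Id4 are the widest in the plot of probe sets.

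**Figure D3:**
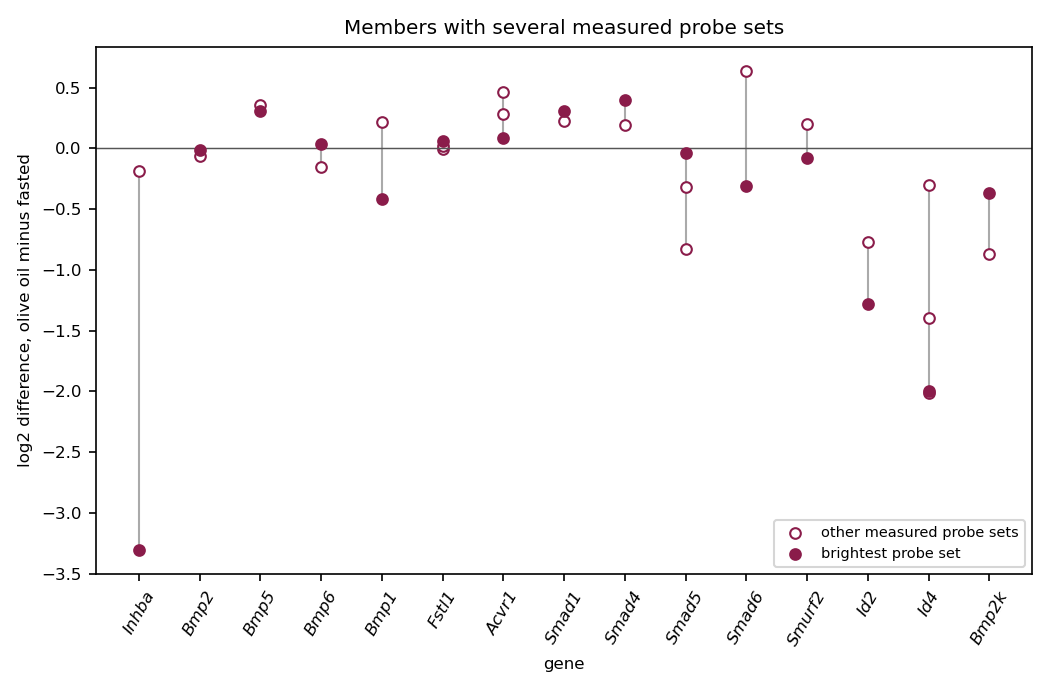
Log2 difference, olive oil minus fasted, of each measured probe set for the 15 members with several, the brightest filled and the others open. Those of Inhba lie at -3.30 and -0.18 and those of Id4 between -2.01 and -0.31, while those of Bmp2, Bmp5, Fstl1 and Smad1 nearly coincide.

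Of the 22 members that were not measured, 4 were below the floor on both arrays, 7 on 1 array, and 11 on neither, with 62.2 the highest signal. Past 2-fold were 6 of them, with Inha, Inhbb and Gdf6 higher and Gdf15, Bmp4 and Gdf9 lower. All were at signals where the filter gives them no count. The share of all unmeasured genes past 2-fold was not computed, so the 6 are not read as a result. Inhbb, Gdf6 and Gdf9 were below the floor on 1 array, so that their sizes depend on the floor.

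Other genes of the pathway were taken from 6 lists. In the list of the BMP6 and hepcidin axis, 7 of 9 genes were measured, and their median was 0.01. Past 1.5-fold, 1 was higher and 1 lower, where 9.46% of all measured genes were higher and 10.1% lower. Hamp, hepcidin, the iron hormone and a direct target of BMP signalling, had 10595 on the olive oil array and 7694 on the fasted array, 1.38-fold higher. Hjv, hemojuvelin, the BMP co-receptor of hepatocytes, had 1751 on the olive oil array and 2442 on the fasted array, 1.39-fold lower. Hamp and Hjv thus lay on opposite sides of 0, both within 1.5-fold. Atoh8, another iron-responsive BMP target, had 516 on the olive oil array and 386 on the fasted array, 1.34-fold higher. Tfrc, the transferrin receptor, had 1275 on the olive oil array and 569 on the fasted array, 2.24-fold higher, and its other probe set was at 1.33 on the log2 scale. Neo1, a receptor that binds hemojuvelin, had 99.7 on the olive oil array and 175.5 on the fasted array, a log2 difference of -0.82, with -0.41 on another probe set.

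The list of TGF-beta target genes had 28 of 37 genes measured and a median of 0.20. Past 1.5-fold, 7 were higher and 3 lower, where 9.46% of all measured genes were higher and 10.1% lower. With the arrays centred on their medians, 6 were higher and 5 lower. Ccn2, connective tissue growth factor, had 499 on the olive oil array and 103 on the fasted array, a log2 difference of 2.28. Spsb1, an adaptor that targets the TGF-beta type II receptor, had 307 on the olive oil array and 77.4 on the fasted array, 3.97-fold higher, with 1.79 and 0.57 on its other probe sets. Timp1, a protease inhibitor of the matrix, had 199 on the olive oil array and 54.3 on the fasted array, 3.66-fold higher. Tsc22d1, a leucine zipper protein first cloned as a TGF-beta-stimulated gene, had 952 on the olive oil array and 2549 on the fasted array, 2.68-fold lower, with 0.20 on another measured probe set. Snai1, a repressor in epithelial change, named after its values were seen, had 30.4 on the olive oil array and 81.1 on the fasted array, -1.42, and was dim. The 4 collagen genes of the list, also named after their values were seen, lay within 1.5-fold, with Col1a1 at -0.03, Col3a1 at 0.05, Col4a1 at 0.17 and Col1a2 at 0.23, and with 0.45 on the other measured probe set of Col1a1. The list thus held genes far out in both directions. Several of its genes, such as Ccn2 and Timp1, also respond to other signals.

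In the list of BMP targets outside the Id genes, all 5 measured genes lay within 1.5-fold, with a median of 0.42, and besides Hamp and Atoh8 these were Hey1 at 0.55, Zfp423 at -0.29 and, named after its value was seen, Hes1 at -0.02. Of 35 measured intracellular regulators and cofactors, 1 was at least 1.5-fold higher and 5 were lower, with a median of -0.04. Xiap, a ubiquitin ligase that also serves the kinase branch of the pathway, had 242 on the olive oil array and 635 on the fasted array, 2.63-fold lower, with -1.48 on its other probe set. Tob2, an antiproliferative relative of the BMP inhibitor Tob1, was 1.97-fold higher. Hipk2, a nuclear kinase, lay at -0.90, and Pdp1, a pyruvate dehydrogenase phosphatase, at -0.80. The 6 of 35 regulators past 1.5-fold were a share near the 19.6% of all measured genes. The 7 measured extracellular antagonists and co-receptors had a median of -0.02, with the proteoglycan decorin (Dcn), which binds TGF-beta, at 0.84, and Bgn, Twsg1 and Rgmb at -0.39, -0.31 and -0.16. The 10 measured genes of TGF-beta activation and latency all lay within 1.5-fold on their brightest probe sets, with a median of -0.11. The farthest were Nrros, Plau, Furin and Emilin1, between -0.29 and -0.22. Fbn1 and Itgav, named after their values were seen, lay at -0.06 and 0.18 on their brightest probe sets. Their other measured probe sets were past 1.5-fold, at 1.03 and 0.59.

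**Figure D4:**
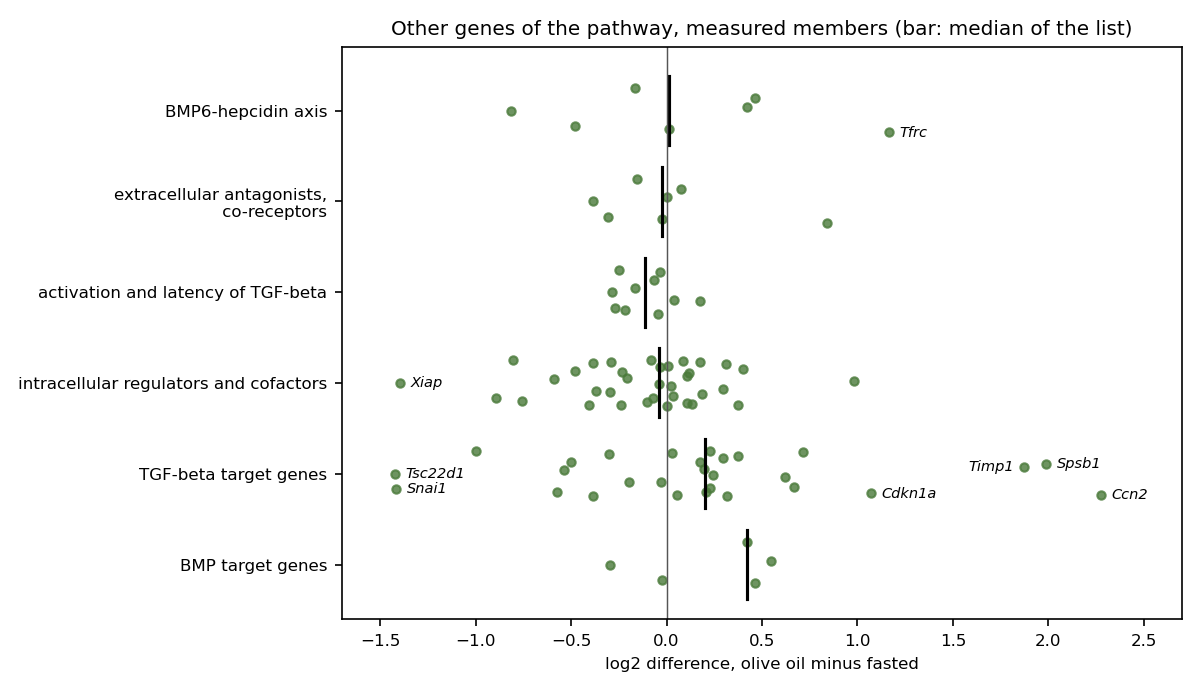
Log2 difference, olive oil minus fasted, of the measured genes in 6 lists of other pathway genes, each dot a gene and each bar the list's median, with genes past 2-fold named. The targets of TGF-beta reach from -1.42 (Tsc22d1, with 0.20 on another measured probe set, and Snai1, which was dim) to 2.28 (Ccn2). On their brightest probe sets the activation genes stay within 0.29 of 0.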

How the data were processed

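Liver total RNA was converted to biotin-labelled cRNA and hybridized to Affymetrix arrays, per the labels' protocols. The deposited table holds 1 signal intensity per probe set and array. The tool was Affymetrix Expression Console, per the submitters' processing notes, with algorithm and version not given in the sources used here. Trimmed by 2% at each end, the deposited intensities averaged 200.1 on both arrays. No detection call was used, and the number of arrays limits the precision.

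Of 31099 probe sets, 57 controls were set aside. Symbols of the 20826 probe sets with 1 gene (436 had several, 9780 none) came from the platform annotation and were updated by gene ID through RefSeq's GRCr8 table, which held 20758 of them. Differences are log2, olive oil minus fasted, with the floor and filter given above. With 1 array per group no test was made, and fixed sizes of 2-fold and 1.5-fold took its place. The members and gene lists were chosen with earlier results of these data known. Named genes are all members, up to 4 genes of largest difference per pathway list, and Hamp, Hjv and Ccn2 whatever their change, with other names marked. The functions were tested on simulated arrays with known changes. These changes were all past 2-fold, on probe sets well above the filter level and with little noise. The test therefore does not cover small changes or dim probe sets. Alternatives changed scaling, floor, filter, probe set choice, symbols and size. Tools were matplotlib 3.10.9, statsmodels 0.14.6, scipy 1.17.1, pandas 2.3.3 and numpy 2.4.6 under Python 3.11.15.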

Additional observations from a re-analysis of the deposited data

How the results depend on the processing

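With 1 array per group, no alternative gives an error over rats. No paired analysis was possible because each group had 1 array. Dim probe sets limit what can be read from the 22 members that were not measured. Of the 9 members past 1.5-fold, Nrep, Inhba, Id4, Id2, Smad2, Tgfb3, Bmpr2 and Id1 stayed past it under each alternative that gave them a value, while Eng, at 0.60, was 0.53 with the arrays centred on their medians and 0.58 with an offset of 16. Inhba ranged from -3.38 to -1.74 and Id4 from -2.07 to -1.43, the smaller sizes being the mean over measured probe sets. Each alternative used or included the brightest probe set of Inhba, so that none could show it within 1.5-fold on its other probe set, at -0.18. Leaving out probe sets with suffixes for shared transcripts gave no value for Nrep, Id1 and Id3. Members at least 2-fold higher numbered 1, and 0 with the offset of 16 (Tgfb3 at 0.93), 0 with a filter at the 75th percentile, 0 at 3-fold and 4 with no filter on dim probe sets. Members at least 2-fold lower numbered 5, and 3 at 3-fold and 8 with no filter. Members at least 1.5-fold higher numbered 4, and 2 with the stricter filter and 9 with no filter. Members at least 1.5-fold lower numbered 5, and 8 with no filter and 8 with centring, where Acvr2a at -0.64, Bambi at -0.59 and Smad3 at -0.60 passed that size. Shares of all genes with no filter and at 3-fold were not computed, so those counts have no background beside them. The median of the members lay between -0.11 and 0.01 under all alternatives. Bmp2k, at -0.37, was -0.62 with the mean over its probe sets. Using the probe set of highest mean log2 signal, leaving out Nrep, Tgfb1i1 and Bmp2k, and the scatter without Inhba and Id4 were chosen after seeing the data.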
